A study of Mus musculus with 20 samples.

Results

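Fetal macrophage genes are transcripts by which macrophages can be recognised in embryonic tissue. Here they were 34 genes chosen by symbol. Each was taken from the array probe sets that carry its symbol and no other. Of these, the probe set with the highest mean stood for the gene. All 34 were measured, out of 19936 genes with a named probe set. The samples were mouse limbs of strain 129Sv at embryonic day 13.5, either wild-type or Lmx1b -/-, a loss-of-function mutant of the LIM-homeodomain factor that patterns the dorsal limb. Each of the 20 arrays was hybridised with material from an individual limb, in 4 groups of 5: wild-type forelimbs, Lmx1b -/- forelimbs (here knockout forelimbs), wild-type hindlimbs and knockout hindlimbs. The mutation is in all cells of the embryo, and no group carried another allele or agent. The series asks which limb genes LMX1B controls. Biological replication is stated in the titles, but whether any limbs share an embryo is not. The p-values below treat the arrays as independent and measure the spread among them, part of which may be technical. If limbs share an embryo, the arrays are not independent replicates and there are fewer embryos than arrays. The p-values would then not measure the spread among embryos.

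Macrophages enter the limb bud from the yolk sac and fetal liver lineages and depend on the receptor Csf1r for survival. In the embryonic limb they gather where cells die, such as the tissue between the digits, and engulf the remains. Their transcripts include receptors that set the lineage, scavenger receptors that take up debris, Fc receptors with their signalling adaptors, the complement component C1q, secreted and lysosomal products, and membrane and cytoskeletal proteins shared with other leukocytes. Some of these genes are also made elsewhere: Stab1 and Mrc1 in some endothelium, F13a1 and Pf4 in megakaryocytes, Hpgds in mast cells, and Dab2 in many cell types. Whole limbs were measured, so fewer cells of a type and less RNA per cell cannot be told apart.

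Promoter sequence was available for 28 of the 34 genes, as windows of 250 bases before and 50 after each annotated transcription start from RefSeq on GRCm38.p6. The windows were searched on both strands for 4 short motifs: GAGGAAG, the PU box bound by PU.1, the product of Spi1; TGANTCA, the AP-1 element; TTGCNNAA, a C/EBP element; where N is any base; and an IRF element, GAAA followed by any 2 bases and GAAA again. No matches of different motifs overlapped in these windows. The PU box was in the windows of 12 of the 28 genes (42.9%), against 15.1% of the 15614 genes with a window. The 12 were Mrc1, Fcgr3, Fcgr1, C1qc, Itgam, F13a1, Pf4, Laptm5, Ctss, Cd53, Trem2 and Hpgds. AP-1 was in 5 (17.9% against 8.08%), C/EBP in 6 (21.4% against 11.3%) and IRF in 3 (10.7% against 3.89%). The motifs were chosen after these windows had been looked at, so the shares are descriptions and not a test. These matches describe letters and show no binding. The 3 sequences below are the 250 bases before the start, 5′ to 3′ on the gene's own strand, of genes that were lower in wild-type hindlimbs than in wild-type forelimbs and hold the PU box before their start. Capitals mark the PU box, which reads CTTCCTC where it lies on the opposite strand. Mrc1 lies on the plus strand at chr2:14229164-14229413 and has a box from -168 to -162 and another from -36 to -30, counted from the start. Laptm5 lies on the plus strand at chr4:130913066-130913315, with its box from -39 to -33. F13a1 lies on the minus strand at chr13:37050245-37050494, with its box from -66 to -60.
Mrc1: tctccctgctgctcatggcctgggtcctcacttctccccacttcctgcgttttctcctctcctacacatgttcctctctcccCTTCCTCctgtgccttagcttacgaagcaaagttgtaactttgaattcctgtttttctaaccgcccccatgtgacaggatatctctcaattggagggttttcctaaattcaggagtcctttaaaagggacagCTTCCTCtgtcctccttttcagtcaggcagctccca
Laptm5: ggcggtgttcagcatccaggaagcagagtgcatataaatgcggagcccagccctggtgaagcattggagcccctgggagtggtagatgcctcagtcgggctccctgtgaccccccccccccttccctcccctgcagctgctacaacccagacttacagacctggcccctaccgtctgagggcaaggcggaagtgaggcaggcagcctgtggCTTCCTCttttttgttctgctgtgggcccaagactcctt
F13a1: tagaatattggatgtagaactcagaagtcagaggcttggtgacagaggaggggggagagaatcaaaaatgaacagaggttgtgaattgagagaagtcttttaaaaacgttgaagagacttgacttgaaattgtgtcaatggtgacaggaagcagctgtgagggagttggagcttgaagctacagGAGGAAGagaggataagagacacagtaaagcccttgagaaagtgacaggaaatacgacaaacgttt

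The targeted gene was lower in every knockout array. The Lmx1b probe set read at most 6.09 on the log2 scale in the knockouts and at least 6.14 in the wild types, a log2 change of -0.55 (SE 0.049, adjusted p = 2.63e-07 by limma over both limb types). Median intensity per array ranged from 28.6 to 31.8, or 4.84 to 4.99 on the log2 scale. The number of arrays limits the precision. Of the 34 genes, 20 had a mean log2 level of 5 or more and 14 were below it; no gene was removed for a low level. By sex-linked transcripts, 13 arrays were male and 7 female. The 5 wild-type forelimbs were all male, the knockout forelimbs were 2 male and 3 female, and each hindlimb group was 3 male and 2 female. All values below are RMA values on the log2 scale, and a change is a difference of group means on that scale. Levels of different genes come from different probe sets and are not compared.

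The macrophage genes were, as a set, at their highest level in wild-type forelimbs and at their lowest in knockout hindlimbs. The mean over the 34 genes was 5.30 ± 0.117 (SD, n = 5 arrays) in wild-type forelimbs, 5.10 ± 0.104 in knockout forelimbs, 5.06 ± 0.064 in wild-type hindlimbs and 4.99 ± 0.046 in knockout hindlimbs. The 5 wild-type forelimbs had means of 5.10, 5.28, 5.37, 5.36 and 5.37 in the order of their replicate numbers. Knockout forelimbs had 5.15, 5.0, 5.255, 5.02 and 5.09. Wild-type hindlimbs had 5.04, 5.04, 5.11, 4.98 and 5.14, and knockout hindlimbs had 5.04, 5.03, 4.99, 4.95 and 4.94. Replicate 1 of the wild-type forelimbs stood below the other 4 of its group and set the overlap: 3 of 5 knockout forelimbs and 3 of 5 wild-type hindlimbs lay below every wild-type forelimb. The knockout mean was lower by 0.19 in forelimbs (-0.19) and by 0.07 in hindlimbs (-0.07), beside a within-group SD of 0.088. Hindlimbs differed from forelimbs by -0.23 in wild type and by -0.11 in knockouts. The genes were chosen with results of these data known, so these means carry no p-value.

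**Figure D1:**
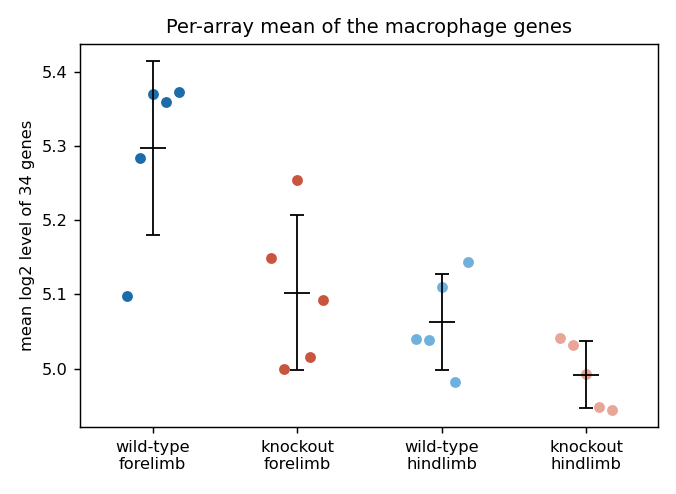
Mean log2 level of the 34 macrophage genes on each array (vertical axis, log2 RMA level) in the 4 groups of 5 arrays (horizontal axis). Points are arrays, the long line is the group mean and the bars are 1 SD; the wild-type forelimbs hold the 4 highest arrays, and their lowest array, at 5.10, lies among the knockout forelimbs and wild-type hindlimbs.

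In forelimbs without Lmx1b, 3 of the 34 macrophage genes fell and none rose. They were Mrc1, the mannose receptor; Csf1r, the receptor for the survival factors CSF1 and IL-34; and Stab1, a scavenger receptor for modified lipoprotein and cell debris. Over all genes tested, 1.03% were called lower in knockout forelimbs (limma, Benjamini-Hochberg adjusted p under 0.05). Of the 34 macrophage genes, 31 had a change below 0, with a median of -0.18 beside 0 for all genes, and 14 had an unadjusted p under 0.05. Those not past the threshold included F13a1 (-0.44), Lyz2 (-0.43), Hpgds (-0.39) and Cd53 (-0.37). Unadjusted p-values of this size were common among all 19936 genes: Lcp1, at 0.0507 by limma, ranked 2647 by p. In 4 of the 34 (11.8%), all 5 knockout forelimbs lay below all 5 wild-type forelimbs, against 1.72% of all genes: Csf1r, Mrc1, Fcgr3 and Stab1.

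In hindlimbs the same comparison called none of the 34 by limma, against 0.226% of all genes lower. Only Mrc1 had an unadjusted p under 0.05 there (-0.31, SE 0.123, adjusted p = 0.724). Changes were below 0 for 25 genes, with a median of -0.08. C1qb was the 1 gene whose knockout hindlimbs all lay below the wild-type hindlimbs, against 0.903% of all genes. The difference between the genotype effects of the limb types passed for none of the 34, against 0.0201% of all genes in either direction; Stab1 (0.29) and Laptm5 (0.33) were the 2 with an unadjusted p under 0.05, both at an adjusted p of 1. So the fall in forelimbs was not shown to differ from the change in hindlimbs. The mean of both genotype effects called 2 genes lower, Mrc1 (-0.43, SE 0.087, adjusted p = 0.00904) and Csf1r (-0.27, SE 0.060, adjusted p = 0.0174), against 1.57% of all genes, and 15 had an unadjusted p under 0.05. A lower knockout mean in both limb types was seen in 24 of the 34. The share of all genes with such means is not given here, so this count is a description only. For the mean of both effects, Itgam at an unadjusted p of 0.0452 by limma ranked 2747 of the 19936 genes. Here, genotype over both limb types stands for that mean, and a call for it is not a call in each limb type.

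The sex of the arrays differed between the forelimb groups. With the level of Y-linked transcripts as a covariate, none of the 3 forelimb calls passed by limma. The changes were then -0.38 for Csf1r (adjusted p = 0.0800), -0.59 for Mrc1 (0.0543) and -0.33 for Stab1 (0.126). All 5 wild-type forelimbs were male, so sex and genotype cannot be fully told apart in forelimbs. Over both limb types, Csf1r and Mrc1 lost their calls among male arrays alone, at -0.22 (adjusted p = 0.318) and -0.38 (0.194), with fewer arrays in the fit. Within the knockout forelimbs, the mean of the 34 genes was 5.09 to 5.15 in the 2 males and 5.0 to 5.26 in the 3 females. The forelimb count was also 0 among male arrays and with all probe sets tested, and 1 with only the groups compared. It was 0 without wild-type forelimb replicate 3, 4 or 5 or knockout forelimb replicate 4 or 5. It was 1 without knockout forelimb replicate 2 and 6 without wild-type forelimb replicate 1.

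Between limb types in wild type, 8 of the 34 macrophage genes were lower in hindlimbs and none was higher. They were F13a1, Mrc1, Cd53, Stab1, Csf1r, Lcp1, Laptm5 and Cx3cr1: 2 of the 4 lineage genes, 2 of the 8 scavenger and endocytic genes, 1 of the 7 secreted, lysosomal and effector genes and 3 of the 8 leukocyte membrane and cytoskeletal genes. Among all genes, 2.49% were called lower in wild-type hindlimbs. Changes were below 0 for 30 of the 34, with a median of -0.27 beside 0.02 for all genes, and 20 had an unadjusted p under 0.05. Among all 19936 genes such p-values were common: Fcer1g, at an unadjusted p of 0.045 by limma, ranked 3094 by p. In 6 (17.6%), all 5 wild-type hindlimbs lay below all 5 wild-type forelimbs, against 3.2% of all genes: Csf1r, Mrc1, Cx3cr1, F13a1, Laptm5 and Stab1. The wild-type forelimbs serve both here and in the forelimb genotype comparison, so the lower values of both comparisons are read against the same 5 arrays. The sex of the arrays differed here too, and the count was 5 with the Y-linked covariate, among male arrays and with all probe sets tested; Cx3cr1, Laptm5 and Cd53 lost their calls in each of these settings. Without wild-type forelimb replicate 1 the count was 15, and it was 4 without wild-type forelimb replicate 5 or wild-type hindlimb replicate 6 or 9, and 5 without wild-type forelimb replicate 4 or wild-type hindlimb replicate 7.

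Between the limb types of the knockouts, limma called none of the 34, against 0.441% of all genes lower in knockout hindlimbs. Changes were below 0 for 28 genes, with a median of -0.10, and 8 had an unadjusted p under 0.05. Among all 19936 genes, the unadjusted p of Stab1, 0.0483 by limma, ranked 1915. F13a1 had the change farthest from 0 (-0.39, adjusted p = 0.259). Stab1 was the 1 gene whose knockout hindlimbs all lay below its knockout forelimbs, against 0.943% of all genes. The difference between the limb-type changes of the genotypes is the same quantity as the difference between the genotype effects given above, and it passed for none.

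**Figure D2:**
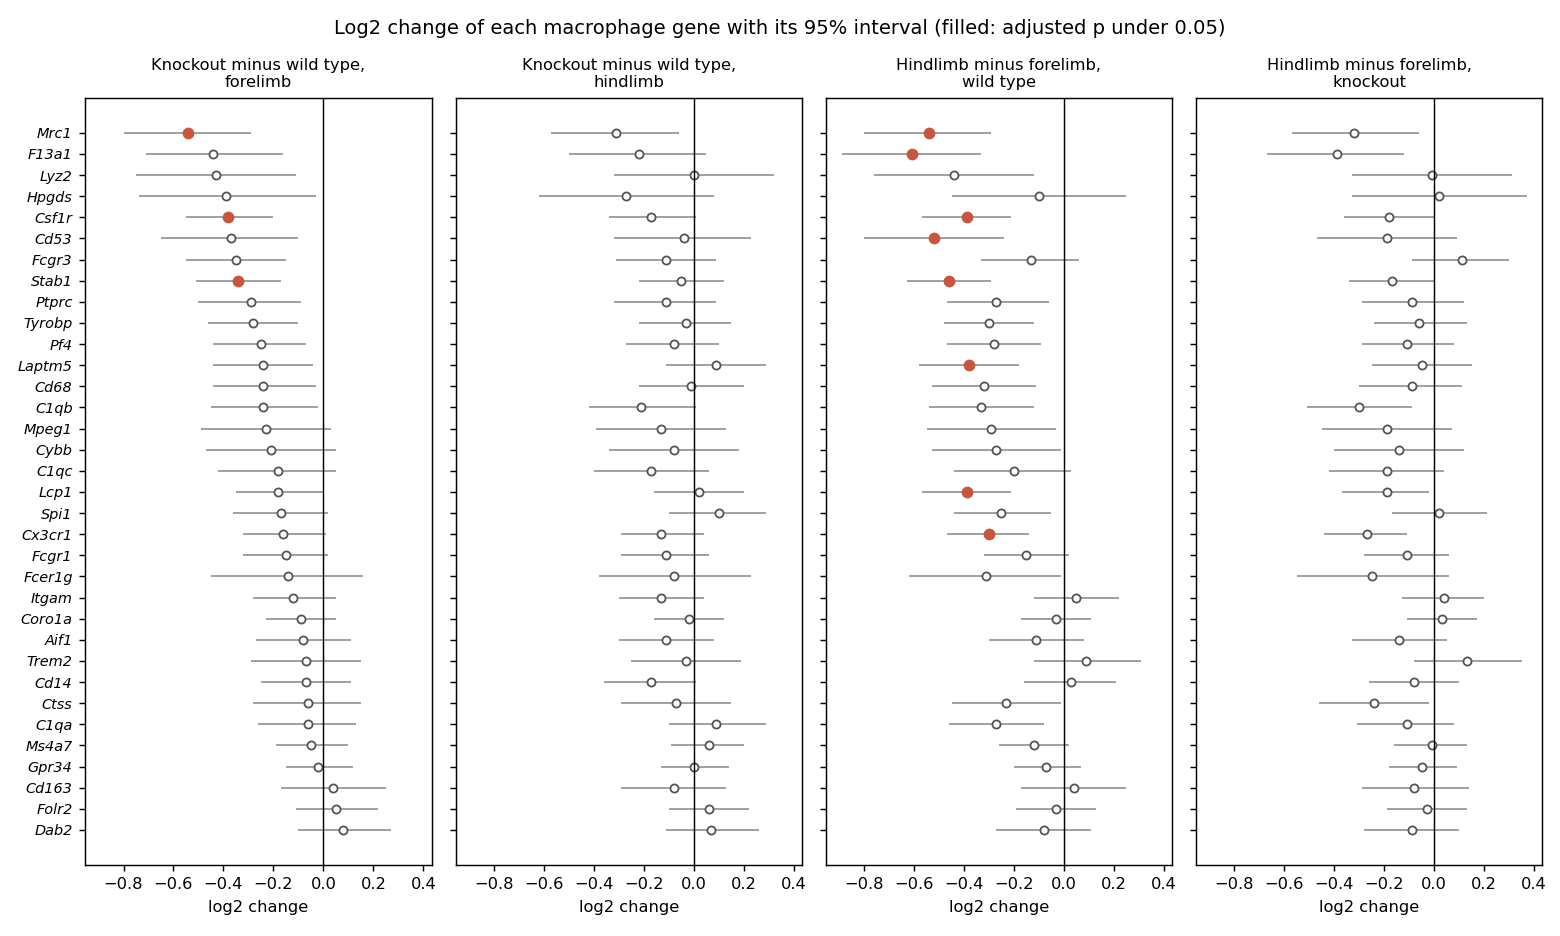
Log2 change of each of the 34 macrophage genes (rows) in 4 comparisons (panels), with 95% intervals from limma; filled points have an adjusted p under 0.05. Filled points are 3 in the forelimb genotype panel, 8 in the wild-type limb-type panel and none in the other panels, and all of them lie left of 0.

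The receptors and the regulator that mark the lineage were Csf1r, Cx3cr1, Spi1 and Gpr34. Csf1r read 5.69, 5.80, 5.84, 5.89 and 5.98 in the wild-type forelimbs and 5.62, 5.39, 5.65, 5.21 and 5.45 in the knockout forelimbs. In hindlimbs Csf1r read 5.37, 5.47, 5.55, 5.31 and 5.55 in wild type and 5.30, 5.30, 5.5, 5.2 and 5.13 in knockouts. Every other limb thus lay below the lowest wild-type forelimb, while the 2 hindlimb groups overlapped. Csf1r fell by 0.38 (-0.38, 95% interval -0.55 to -0.20, 1.3-fold lower, adjusted p = 0.0266) in knockout forelimbs, and the hindlimb change was -0.17 (-0.34 to 0.01, adjusted p = 0.901). In wild type its hindlimb level was lower by 0.39 (-0.39, SE 0.085, adjusted p = 0.012).

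Cx3cr1, the receptor for fractalkine and a marker of yolk-sac-derived macrophages, passed for limb type in wild type and not for genotype. Its wild-type forelimbs read 6.16, 6.25, 6.47, 6.33 and 6.5, and its wild-type hindlimbs 6.13, 6.04, 6.02, 5.95 and 6.05. Knockout forelimbs read 6.08, 5.99, 6.31, 6.27 and 6.27, and knockout hindlimbs 5.75, 5.92, 5.81, 6.06 and 6.01. The wild-type limb types did not overlap (-0.30, SE 0.080, adjusted p = 0.0364), whereas both genotype comparisons overlapped (-0.16 in forelimbs, adjusted p = 0.414; -0.13 in hindlimbs, adjusted p = 0.946). The limb-type call of Cx3cr1 was lost with the Y-linked covariate (-0.31, adjusted p = 0.0665) and without any of 8 arrays in turn (adjusted p up to 0.115): wild-type forelimbs 3, 4 and 5 and wild-type hindlimbs 6 to 10. Spi1, which encodes PU.1, the factor that drives myeloid fate, passed no test: its group means were 4.51, 4.33, 4.26 and 4.35 in wild-type forelimbs, knockout forelimbs, wild-type hindlimbs and knockout hindlimbs. Gpr34, a lysophosphatidylserine receptor of microglia and other macrophages, stayed between 2.93 and 3.22 on all 20 arrays, below the array medians.

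Of the 8 scavenger and endocytic genes, Mrc1 and Stab1 passed a test and the other 6 did not. Mrc1 read 5.87, 5.84, 6.10, 6.07 and 6.27 in wild-type forelimbs and 5.52, 5.56, 5.80, 5.13 and 5.44 in knockout forelimbs. In hindlimbs Mrc1 read 5.24, 5.46, 5.81, 5.21 and 5.72 in wild type and 5.12, 5.34, 5.27, 5.10 and 5.04 in knockouts. Its knockout forelimbs lay below all wild-type forelimbs, and 3 of its knockout hindlimbs lay below all wild-type hindlimbs. The change was -0.54 (-0.80 to -0.29, 1.46-fold lower, adjusted p = 0.0278) for genotype in forelimbs and -0.54 (-0.80 to -0.29, adjusted p = 0.0151) for limb type in wild type. The limb-type call of Mrc1 was lost without wild-type forelimb 5 or wild-type hindlimb 6 or 9 (adjusted p up to 0.062). Of the 34 genes, Mrc1 had the genotype change farthest from 0 in each limb type.

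Stab1 read 5.42, 5.52, 5.62, 5.67 and 5.87 in wild-type forelimbs and 5.37, 5.15, 5.36, 5.23 and 5.29 in knockout forelimbs. Its hindlimbs read 5.04, 5.10, 5.32, 4.98 and 5.38 in wild type and 5.10, 5.13, 5.08, 5.13 and 5.10 in knockouts. The knockout hindlimbs lay inside the range of the wild-type ones and varied by an SD of 0.020, beside 0.173 for the wild-type ones. Stab1 fell in knockout forelimbs (-0.34, -0.51 to -0.17, adjusted p = 0.0399) and was lower in wild-type hindlimbs than in wild-type forelimbs (-0.46, -0.63 to -0.29, adjusted p = 0.00268), while its hindlimb genotype change was -0.05 (adjusted p = 0.99). Centring the arrays on their medians put the forelimb genotype change of Stab1 at -0.30 with an adjusted p of 0.0508.

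The other 6 scavenger and endocytic genes passed no test. Cd68, a lysosomal glycoprotein of macrophages, had means of 5.86, 5.63, 5.55 and 5.53 in the group order used for Spi1, with changes of -0.24 for genotype in forelimbs (adjusted p = 0.31) and -0.32 for limb type in wild type (adjusted p = 0.0899). Cd163, the haemoglobin scavenger receptor, had means of 3.40 to 3.48, and Folr2, a folate receptor of resident macrophages, 3.90 to 3.99. Cd14, the lipopolysaccharide co-receptor, lay between 4.13 and 4.30, and Trem2, a lipid receptor that signals through Tyrobp, between 5.03 and 5.19. Dab2, an endocytic adaptor of many cell types, had means of 8.25 to 8.42. Its genotype change was 0.08 in forelimbs and 0.07 in hindlimbs, with adjusted p-values of 0.752 and 0.99.

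None of the 4 Fc receptor and ITAM adaptor genes passed in any comparison by limma, although 3 had an unadjusted p under 0.05 for genotype over both limb types. Fcgr3, a low-affinity receptor for immunoglobulin G, read 4.35, 4.40, 4.62, 4.95 and 4.46 in wild-type forelimbs and 4.25, 4.0, 4.14, 4.33 and 4.30 in knockout forelimbs. Its hindlimbs read 4.51, 4.31, 4.33, 4.40 and 4.54 in wild type and 4.28, 4.40, 4.43, 4.18 and 4.26 in knockouts. The forelimb genotypes did not overlap (-0.35, -0.55 to -0.15, adjusted p = 0.0775), and the limb types of wild type did (-0.13, adjusted p = 0.52).

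Tyrobp encodes DAP12, the adaptor that carries the signal of Trem2 and related receptors. It read 5.0, 5.19, 5.30, 5.38 and 5.48 in wild-type forelimbs and 4.99, 4.88, 5.2, 4.89 and 5.0 in knockout forelimbs. Its hindlimbs read 4.87, 4.92, 5.0, 4.95 and 5.11 in wild type and 5.14, 5.03, 4.91, 4.85 and 4.76 in knockouts. The forelimb groups overlapped at their ends (-0.28, adjusted p = 0.142), and the hindlimb groups overlapped fully (-0.03, adjusted p = 0.996). Fcgr1, the high-affinity immunoglobulin G receptor, had means of 4.89, 4.73, 4.74 and 4.62 in the same group order, and Fcer1g, the common Fc receptor gamma chain, 6.02, 5.88, 5.71 and 5.63. Neither passed in any comparison; the adjusted p of Fcer1g was 0.739 for genotype in forelimbs and 0.29 for limb type in wild type.

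The 3 chains of C1q, which starts the classical complement pathway and tags dying cells, passed no test. C1qb read 5.79, 5.93, 6.21, 6.28 and 6.17 in wild-type forelimbs and 6.16, 5.59, 6.04, 5.72 and 5.69 in knockout forelimbs. In hindlimbs C1qb read 5.83, 5.80, 5.80, 5.64 and 5.67 in wild type and 5.63, 5.57, 5.52, 5.55 and 5.45 in knockouts. The hindlimb genotypes were separated by the narrow step from 5.64 to 5.63 (-0.21, -0.42 to 0.01, adjusted p = 0.889), and the forelimb genotypes overlapped (-0.24, adjusted p = 0.314).

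C1qc read 5.55, 5.74, 5.94, 6.01 and 6.03 in wild-type forelimbs and 5.73, 5.31, 5.98, 5.67 and 5.65 in knockout forelimbs. Its hindlimbs read 5.77, 5.55, 5.83, 5.38 and 5.71 in wild type and 5.59, 5.53, 5.42, 5.32 and 5.54 in knockouts. All of these groups overlapped, and the genotype changes were -0.18 in forelimbs and -0.17 in hindlimbs (adjusted p = 0.516 and 0.946). C1qa read 5.49, 5.81, 6.01, 5.94 and 5.95 in wild-type forelimbs and 5.90, 5.59, 5.91, 5.78 and 5.70 in knockout forelimbs. Its hindlimbs read 5.65, 5.55, 5.58, 5.35 and 5.71 in wild type and 5.72, 5.70, 5.80, 5.5 and 5.59 in knockouts. Both genotype comparisons overlapped (-0.06 in forelimbs and 0.09 in hindlimbs), and so did the wild-type limb types (-0.27, adjusted p = 0.121), through the forelimb at 5.49.

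Among the 7 secreted, lysosomal and effector genes, F13a1 was lower in hindlimbs and none passed for genotype. F13a1 encodes the A chain of coagulation factor XIII. It read 6.22, 6.43, 6.65, 6.54 and 6.72 in wild-type forelimbs and 5.84, 5.98, 5.90, 5.89 and 5.89 in wild-type hindlimbs, which were tightly grouped and fully below. Knockout forelimbs read 6.06, 6.01, 6.66, 5.63 and 6.01, and knockout hindlimbs 5.89, 5.86, 5.47, 5.60 and 5.58. Replicate 3 of the knockout forelimbs, at 6.66, lay inside the wild-type range, and the other 4 lay below it. The limb-type change in wild type was -0.61 (-0.89 to -0.33, 1.52-fold lower, adjusted p = 0.0125), the farthest from 0 of the 34 genes, and the forelimb genotype change was -0.44 (-0.71 to -0.16, adjusted p = 0.132).

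Hpgds, the haematopoietic prostaglandin D synthase, varied widely within groups. It read 5.65, 5.64, 6.15, 5.97 and 5.94 in wild-type forelimbs and 5.47, 5.53, 6.01, 5.12 and 5.30 in knockout forelimbs. Its hindlimbs read 5.61, 5.78, 5.91, 5.46 and 6.10 in wild type and 6.11, 5.61, 5.25, 5.32 and 5.22 in knockouts. Its genotype changes of -0.39 and -0.27 had adjusted p-values of 0.324 and 0.946. Lyz2, which encodes lysozyme, had means of 5.10, 4.67, 4.66 and 4.66 in the group order used for Spi1, the highest being that of the wild-type forelimbs; its changes of -0.43 for genotype in forelimbs and -0.44 for limb type in wild type had adjusted p-values of 0.209 and 0.133. Pf4, a platelet and macrophage chemokine, read 5.06, 5.49, 5.29, 5.42 and 5.38 in wild-type forelimbs and 5.14, 5.13, 5.24, 4.77 and 5.08 in knockout forelimbs. Its hindlimbs read 5.0, 5.21, 4.97, 4.94 and 5.13 in wild type and 5.15, 5.02, 4.87, 4.89 and 4.90 in knockouts. All of these groups overlapped, with changes of -0.25 (adjusted p = 0.208) and -0.28 (0.0999) in the same comparisons. Mpeg1, which encodes perforin-2, gave -0.23 and -0.29, and Cybb, a subunit of the phagocyte oxidase, -0.21 and -0.27. Ctss, the lysosomal protease cathepsin S, gave -0.06 and -0.23.

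The 8 membrane and cytoskeletal genes are shared by macrophages and other leukocytes. Laptm5, Cd53 and Lcp1 were lower in wild-type hindlimbs than in wild-type forelimbs, and none of the 8 passed for genotype. Cd53, a leukocyte tetraspanin, read 5.90, 6.09, 6.55, 6.09 and 6.42 in wild-type forelimbs and 5.56, 5.68, 5.86, 5.42 and 5.93 in wild-type hindlimbs. Knockouts read 5.99, 5.49, 6.18, 5.68 and 5.84 in forelimbs and 5.84, 5.81, 5.58, 5.54 and 5.45 in hindlimbs. The wild-type limb types overlapped by 1 array on each side (-0.52, SE 0.133, adjusted p = 0.0334), and the forelimb genotype change was -0.37 (adjusted p = 0.21). The limb-type call of Cd53 was lost with the Y-linked covariate (-0.49, adjusted p = 0.0778) and without wild-type forelimb 3, 4 or 5 or wild-type hindlimb 6, 7 or 9 (adjusted p up to 0.121).

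Laptm5, a lysosomal membrane protein of blood cells, read 5.78, 5.93, 5.87, 5.91 and 6.34 in wild-type forelimbs and 5.56, 5.52, 5.67, 5.55 and 5.64 in wild-type hindlimbs. Knockouts read 5.69, 5.75, 5.96, 5.48 and 5.76 in forelimbs and 5.70, 5.85, 5.66, 5.45 and 5.75 in hindlimbs. The wild-type limb types did not overlap (-0.38, SE 0.096, adjusted p = 0.0312), and the knockout ones were intermixed (-0.05, adjusted p = 0.931). The limb-type call of Laptm5 was lost with the Y-linked covariate (-0.39, adjusted p = 0.0515) and without wild-type forelimb 4 or 5 or wild-type hindlimb 6, 7 or 9 (adjusted p up to 0.0932). Lcp1, the actin-bundling protein L-plastin, read 6.33, 6.56, 6.65, 6.61 and 6.48 in wild-type forelimbs and 6.06, 6.01, 6.35, 5.97 and 6.27 in wild-type hindlimbs. Its knockouts read 6.37, 6.27, 6.57, 6.25 and 6.29 in forelimbs and 6.17, 6.32, 6.17, 6.01 and 6.11 in hindlimbs. The wild-type limb types differed by -0.39 (SE 0.085, adjusted p = 0.012) with 1 hindlimb, at 6.35, above the lowest forelimb.

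Ptprc, which encodes the pan-leukocyte antigen CD45, read 4.40, 4.60, 4.75, 4.84 and 4.65 in wild-type forelimbs and 4.42, 4.58, 4.27, 4.23 and 4.28 in knockout forelimbs. Its hindlimbs read 4.09, 4.39, 4.61, 4.44 and 4.38 in wild type and 4.02, 4.37, 4.25, 4.23 and 4.46 in knockouts. All of these groups overlapped; the changes were -0.29 for genotype in forelimbs (adjusted p = 0.182) and -0.27 for limb type in wild type (adjusted p = 0.162). Coro1a, an actin-binding protein, had group means of 5.75 to 5.83, Itgam, the integrin chain CD11b, 3.75 to 3.92, Aif1, the calcium-binding protein IBA1, 4.24 to 4.46, and Ms4a7, a tetraspan protein of macrophages, 3.13 to 3.25. Each of these 4 passed no test, and the unadjusted p of Itgam was 0.0452 for genotype over both limb types (-0.12, adjusted p = 0.328).

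**Figure D3:**
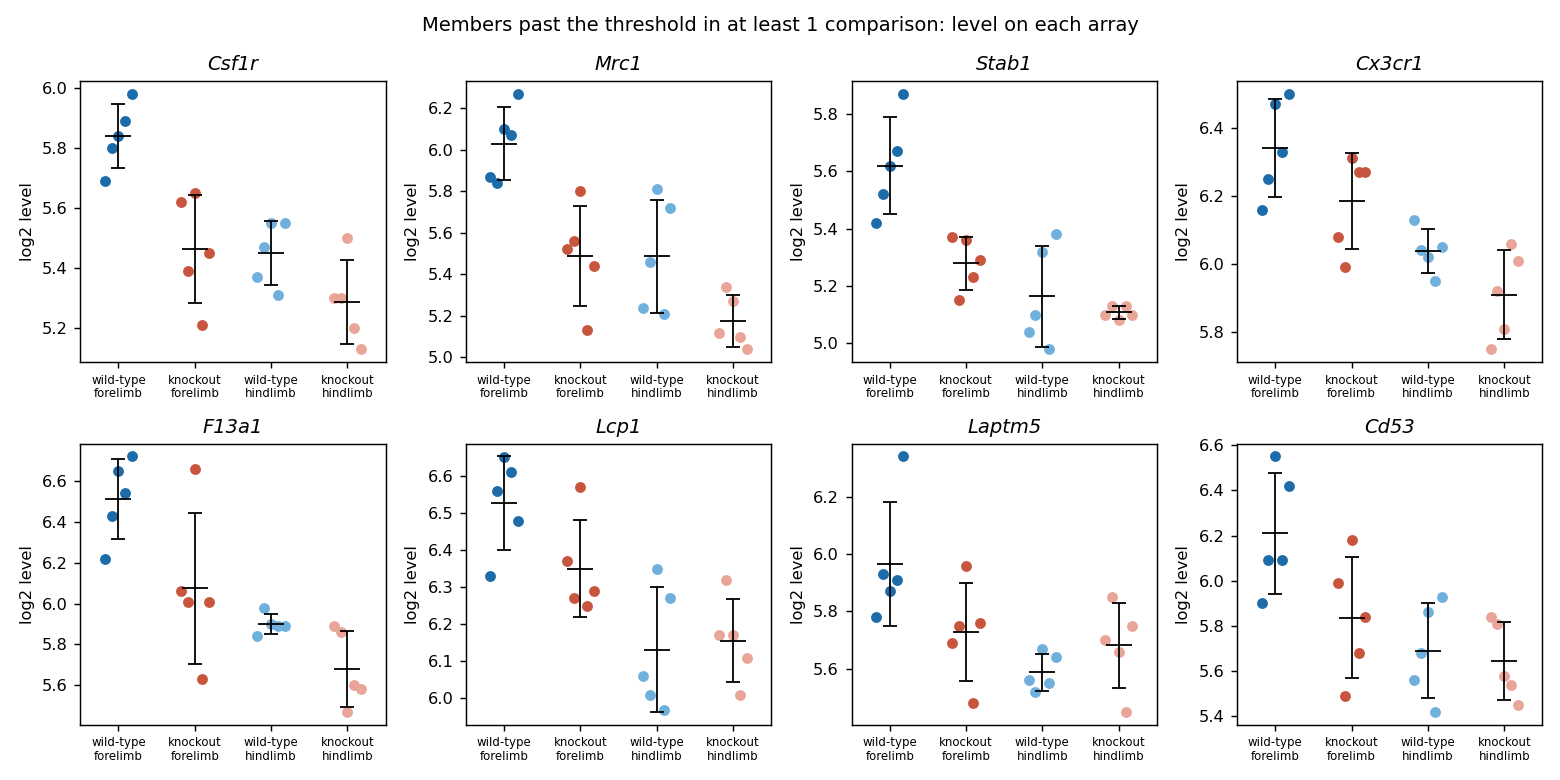
Log2 level on each array (vertical axes, a separate scale for each gene) for the 8 macrophage genes past the threshold in at least 1 comparison, in the 4 groups of 5 arrays. Points are arrays in the order of their replicate numbers, the long line is the group mean and the bars are 1 SD; for Csf1r, Mrc1 and Stab1 the wild-type forelimbs lie above all other arrays.

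The genes with a mean level of 5 or more carried all of the calls. A separate fit took only the 11297 genes of the array at that level. It called 2.2% of them for genotype in forelimbs and 6.98% for limb type in wild type, in either direction. Of the 20 macrophage genes at that level, the main fit called 3 and 8 in these comparisons. For genotype in forelimbs, 19 of these 20 had a change below 0, with a median of -0.24, and 12 of the 14 below that level did, with a median of -0.13; the share of all genes with a change below 0 was 46.1% and 54.1% at those levels. For limb type in wild type, 19 of 20 and 11 of 14 had a change below 0, with medians of -0.31 and -0.13, against 48.8% and 38.6% of all genes. The probe sets of low level, such as those of Cd163, Folr2, Gpr34 and Ms4a7, lay below the array medians in every group.

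How the genes varied together from array to array was described after subtracting group means, over the 20 arrays. The arrays share their processing, and the correlations are descriptions that do not test the label. Against the mean of the other 33 members, Tyrobp (r = 0.87), Cd53 (0.86), C1qa (0.85), Lyz2 (0.85), C1qc (0.82) and Lcp1 (0.80) were highest. In all, 20 of the 34 genes had an r above 0.5. Csf1r and Stab1 were at 0.75 and Mrc1 at 0.66. The 7 genes below 0 were Cd163 (-0.64), Cd14 (-0.40), Trem2 (-0.19), Coro1a (-0.14), Folr2 (-0.11), Gpr34 (-0.11) and Spi1 (-0.04). Between pairs of members the median r was 0.21. Variation between arrays was thus shared by most of the set and not by all of it. The mean of 28 other macrophage genes had an r of 0.82 with the mean of the set, beside 0.88 for 15 blood vessel endothelium genes. The shared variation was therefore not particular to macrophage genes.

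The genes outside the set most like its mean, by Pearson's r over the 20 arrays after subtracting group means, were Ms4a6b (r = 0.93), Mapk13 (0.92), Lamp1 (0.91), Clu (0.91), Adgrg1 (0.91), Mfap5 (0.90), Ccdc3 (0.90), Niban1 (0.89), Serping1 (0.89) and Bcl6 (0.89). Ms4a6b is a membrane protein of leukocytes and Lamp1 a major protein of lysosome membranes. Mfap5 is a protein of connective tissue microfibrils.

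Further macrophage genes, from lists chosen with earlier results of these data known, gave few calls. Of 28 other macrophage genes, limma called none for genotype over both limb types, with 6 at an unadjusted p under 0.05 and a median change of -0.04. Maf, a macrophage transcription factor, gave -0.18 (adjusted p = 0.0537), Rgs1 -0.20 (0.118) and Lyve1, a hyaluronan receptor shared with lymphatic endothelium, -0.39 (0.118). In wild type, Cbr2 was higher in hindlimbs (0.43, adjusted p = 0.0354). Of 17 CSF1 and chemokine signals and receptors, the chemokine receptor Ccr1 was called lower for genotype over both limb types (-0.27, adjusted p = 0.0202 by limma). The rest did not pass, and none of the 17 passed for genotype in either limb type alone. None of 16 genes of ITAM and Src-family signalling passed for genotype (4 at an unadjusted p under 0.05), and Fyb (-0.27) and Rac2 (-0.35) were lower in wild-type hindlimbs.

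Some genes of the clearance of dead cells and of the lysosome passed for limb type in wild type. Of 18 clearance genes, none passed for genotype by limma, with 4 at an unadjusted p under 0.05 over both limb types. In forelimbs 10 of the 18 had an unadjusted p under 0.05 for genotype, all lower in knockouts, with a median of -0.19 beside -0.18 for the macrophage genes. In wild type, 5 were lower in hindlimbs than in forelimbs. They were Gas6 (-0.42), a bridging ligand for dying cells, Elmo1 (-0.34), Lrp1 (-0.46), Abca1 (-0.48) and Megf10 (-0.57). Of 15 lysosome genes, all 15 had a change below 0 for genotype over both limb types and none passed (3 at an unadjusted p under 0.05), and Ctsb (-0.28), Ctsz (-0.26) and Psap (-0.23) were lower in wild-type hindlimbs. Of 10 complement genes outside C1q, C2 (-0.22, adjusted p = 0.0308 by limma) and Cd55 (-0.25, adjusted p = 0.049) were called lower for genotype over both limb types. None of the 10 passed for genotype in either limb type alone. Serping1 was lower in wild-type hindlimbs (-0.41).

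Markers of other cell types moved beside the macrophage genes. Endothelium of blood vessels was nearest: the mean of its 15 genes had an r of 0.88 with the mean of the macrophage genes within groups, and ranged over 6.60 to 6.84 in wild-type forelimbs, 6.43 to 6.76 in knockout forelimbs, 6.44 to 6.73 in wild-type hindlimbs and 6.41 to 6.64 in knockout hindlimbs. Of these genes Tek (-0.44, adjusted p = 0.000642 by limma) and Emcn (-0.29, adjusted p = 0.0136) were called lower for genotype over both limb types. None of the 15 passed for genotype in hindlimbs alone, and Kdr was lower in wild-type hindlimbs than in wild-type forelimbs (-0.46). Of 8 lymphatic endothelium genes, Nrp2 (-0.55, adjusted p = 1.22e-05 by limma) and Prox1 (-0.56, adjusted p = 0.00662) were called lower for genotype over both limb types. In hindlimbs alone only Nrp2 passed. The list's mean ran from 5.52 to 5.84 in wild-type forelimbs, 5.19 to 5.51 in knockout forelimbs, 5.39 to 5.66 in wild-type hindlimbs and 5.18 to 5.36 in knockout hindlimbs (r = 0.76). All 16 muscle genes were lower in wild-type hindlimbs than in wild-type forelimbs, with a median of -0.64. Acta1, Tnnt2, Actn2 and Mylpf were called lower for genotype over both limb types. None of the 16 passed for genotype in hindlimbs alone, where the median was -0.09, beside -0.39 in forelimbs. The muscle mean ran from 7.98 to 8.49, 7.60 to 8.06, 7.22 to 7.72 and 7.28 to 7.72 in the same 4 groups (r = 0.65). The part of these cell types in the result was not tested.

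Other blood cells gave no call. The 13 neutrophil and monocyte genes (none at an unadjusted p under 0.05 over both limb types), 7 megakaryocyte genes (1), 9 mast cell genes (3), 10 lymphocyte genes (1), 11 osteoclast genes (3) and 12 erythroid genes (5) had no gene past the threshold for genotype over both limb types by limma. Cpa3, the mast cell protease, had a change of -0.73 (SE 0.242, adjusted p = 0.135). The mast cell mean ran from 4.41 to 4.71 in wild-type forelimbs, 4.24 to 4.56 in knockout forelimbs, 4.28 to 4.5 in wild-type hindlimbs and 4.17 to 4.38 in knockout hindlimbs. The erythroid mean ran from 6.20 to 6.30, 5.67 to 6.10, 6.01 to 6.33 and 5.97 to 6.41 in the same order, so the knockout forelimbs lay below all wild-type forelimbs, with a within-group r of 0.02 with the macrophage genes. The part of these cells in the result was not tested.

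Of the 12 genes of limb mesenchyme, none passed for genotype over both limb types by limma (4 at an unadjusted p under 0.05), and Col1a2, a chain of collagen I, fell in knockout forelimbs (-0.42, adjusted p = 0.0446). Between the limb types of wild type 7 of the 12 passed, against 3.26% of all genes in either direction. Tbx4 (1.71), Msx1 (0.64) and Prrx2 (0.44) were higher in hindlimbs, and Tbx5 (-3.77), Dpt (-1.45), Col1a1 (-0.83) and Col1a2 (-0.41) were lower. Tbx4 and Tbx5 are limb-type identity factors, so their calls are no result about mesenchyme. In knockouts Tbx4 was higher and Tbx5 and Dpt lower in hindlimbs. The within-group r of the mesenchyme mean with the macrophage genes was 0.70, and the part of these genes in the result was not tested. Of 12 genes of the interdigital region, where macrophages gather, Bmp2 was called higher for genotype over both limb types (0.36, adjusted p = 0.00877 by limma). None of the 12 passed for genotype in hindlimbs alone. Aldh1a2 (1.36) and Msx1 were higher in wild-type hindlimbs than in wild-type forelimbs. Bmp4 was lower in knockout hindlimbs than in knockout forelimbs (-0.35, adjusted p = 0.0265 by limma). The r of the mean of the 12 genes with the macrophage genes was -0.51.

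**Figure D4:**
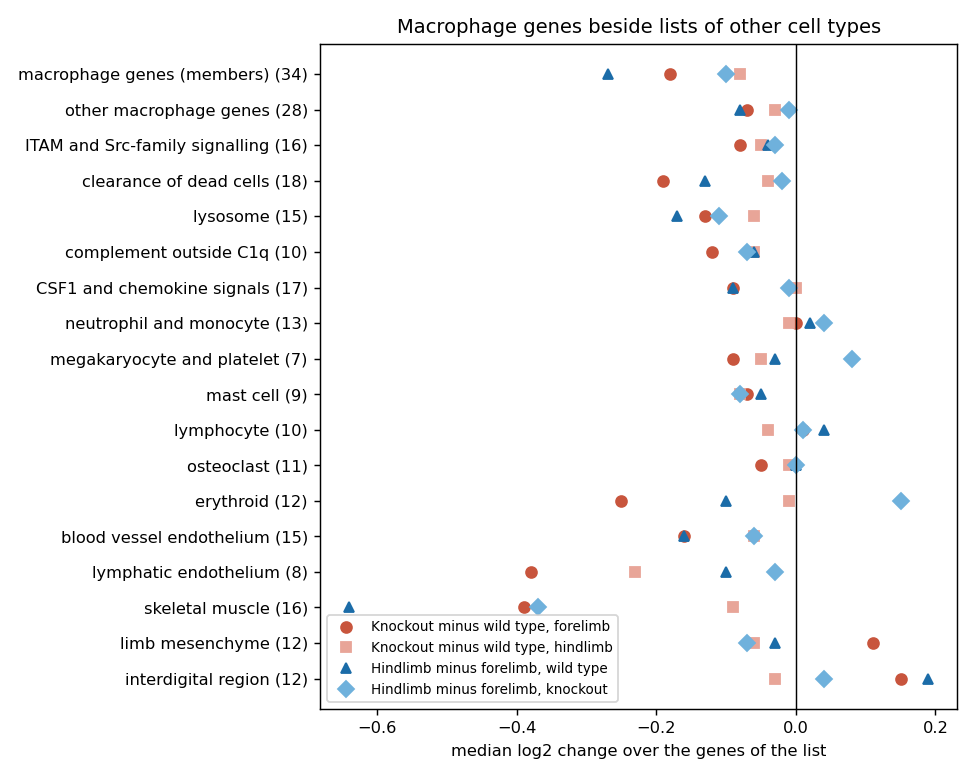
Median log2 change over the genes of each list (horizontal axis) for the 34 macrophage genes and 17 lists of other genes (rows, with the number measured in brackets) in 4 comparisons (symbols). The macrophage genes lie at -0.27 to -0.08, the muscle genes reach -0.64 for limb type in wild type, and the neutrophil and monocyte genes lie near 0.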

How the data were processed

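The arrays were Affymetrix GeneChip 1.0 ST, per the labels' protocols. The deposited values are linear intensities, which the authors obtained by RMA (per the submitters' processing notes). Software version: not given in the sources used here. No scanner file was read. The log2 was taken with no pseudocount, so levels and changes are on the log2 scale. The table held 35512 probe sets, 1 of them empty. Of the others 21789 carried 1 gene symbol, 1621 several and 12101 none. Names came from an Entrez identifier for 21698, an accession for 3 and the platform for 88 probe sets, with RefSeq on GRCm38.p6 used for names and promoter windows. The highest-mean probe set stood for each of 19936 genes, with no filter on low values. For Itgam, 3 brighter probe sets that also carry the symbol Rpl35 were not used.

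All tests used a common fit with limma 3.58.1 in R 4.3.3 (4 group means, all 20 arrays, 16 residual degrees of freedom, eBayes), with Benjamini-Hochberg adjustment over all genes and a threshold of 0.05. The authors' values were summarised in Python 3.11.15. Groups came from the labels. No 2 arrays held identical values.

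The members, role groups and lists were chosen with earlier results of these data known, and the promoter motifs after the windows had been looked at. Every array is given for genes past the threshold in any of 6 comparisons and for the 2 of smallest adjusted p in each role group, both over the 6 comparisons and for genotype over both limb types. Lyve1, Stab2, Mertk, Timd4, Ccr2, Itgb3, Msx1 and Msx2 stand in more than 1 list. Of the other lists, the genes that could be named were those past the threshold and up to 3 of smallest p over both limb types; most muscle genes are given by count. Alternatives were a replicate block, a random block, median centring, sex, side, other probe set rules, a level minimum of 5, a pseudocount of 16, array weights, a trended prior, the 2 groups compared alone and leaving out each array. The fit was also run on simulated data, of which no result is given here.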

Additional observations from a re-analysis of the deposited data

Results flagged for a closer look

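In 6 of the 140 sets of 5 arrays (34 genes and the mean over them, in 4 groups), the highest or lowest array was separated from the nearest other by more than 0.71 of the range of the set. That is 4.3%, and chance gives about 1 in 20. Cd68 was high in wild-type hindlimb replicate 10, at 5.74, with the other 4 arrays at 5.48 to 5.51. Lyz2 was low in wild-type forelimb replicate 1, at 4.60, with the others at 5.17 to 5.30. Spi1 was high in knockout forelimb replicate 1, at 4.61, with the others at 4.22 to 4.29. Laptm5 was high in wild-type forelimb replicate 5, at 6.34, with the others at 5.78 to 5.93. Ms4a7 was high in knockout forelimb replicate 3, at 3.35, with the others at 3.13 to 3.19. Dab2 was low in knockout forelimb replicate 2, at 8.27, with the others at 8.42 to 8.48. The 6 values lay on different arrays.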

How the results depend on the processing

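The count of macrophage genes called for genotype over both limb types, 2, was 5 with limbs that share a number in the descriptions as a random block, 6 with array weights, 0 among male arrays, and 2 to 6 when each array was left out, 6 without wild-type forelimb replicate 1. The forelimb count, 3, was 0 with the Y-linked covariate, among male arrays and with all probe sets tested, 1 with only the groups compared, and 0 to 6 when each array was left out (0 without wild-type forelimb 3, 4 or 5 or knockout forelimb 4 or 5, 1 without knockout forelimb 2, 6 without wild-type forelimb 1). The wild-type limb-type count, 8, was 5 with the Y-linked covariate, among male arrays and with all probe sets tested, 14 with array weights, and 4 to 15 when each array was left out (15 without wild-type forelimb 1, 4 without wild-type forelimb 5 or hindlimb 6 or 9, 5 without wild-type forelimb 4 or hindlimb 7). The other counts stayed at 0 under every alternative run. Leaving out arrays moved the knockout-minus-wild-type difference in the mean of the 34 genes between -0.24 and -0.17 in forelimbs. In hindlimbs it moved between -0.09 and -0.05. Under the other alternatives run for it, this difference ran from -0.23 to -0.14 in forelimbs and from -0.08 to -0.05 in hindlimbs. Stab1, Csf1r, F13a1 and Lcp1 kept their wild-type limb-type calls under all alternatives run. The cause of these changes was not tested, beyond the fewer arrays or more tests that some alternatives hold.

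A pairing by replicate number was not shown. The deviations of same-numbered arrays correlated above 0.1 in 4 of 10 pairs by the titles' number (-0.31 to 0.26) and in 4 of 10 by side and number in the descriptions (-0.23 to 0.23). Such correlations cannot tell whether limbs share an embryo, and left limbs were not set against right ones. The sex of the arrays differed in some pairs by side and number, such as the wild-type right limbs of number 2, and was the same in others. With the number as a replicate block, the forelimb count was 1 (Mrc1), the limb-type call of Cx3cr1 in wild type was lost (adjusted p = 0.0544), and the other counts stayed within 1.5 times. None of the 14 genes below a level of 5 was called, and whether their low level plays a part was not tested.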
